A study of Mus musculus with 6 samples.

Results

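The miR-34 family and miR-210-3p were followed in small RNA libraries of C2C12 cells, a mouse myoblast line that divides in culture and can be made to fuse into muscle fibres. The 6 miRNAs described are mmu-miR-34a-5p, mmu-miR-34b-5p, mmu-miR-34b-3p, mmu-miR-34c-5p, mmu-miR-34c-3p and mmu-miR-210-3p (mmu stands for mouse and is left out from here on). They were picked by name from the 1065 miRNA names of the deposited table, with earlier results of these data known. There were 3 libraries of C2C12 cells treated with TGF-beta, a cytokine that drives fibrosis and holds back muscle differentiation, and 3 libraries of C2C12 control cells. The labels give no genotype, dose or time, and the treatment label names no TGF-beta isoform. In the titles a number directly follows TGF_b for treated and NC_ for control libraries, and is read here as the replicate number. The comparison addresses how myoblast miRNAs answer to this cytokine. Nothing in the labels says that replicates were separate cultures, so a p-value here covers the spread among libraries alone, and some of it may be technical.

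A miRNA is cut from a hairpin RNA, whose 5p and 3p arms can each be loaded into an Argonaute protein and guide it to mRNAs that pair with the seed, the bases next to the 5′ end. The miR-34 genes are direct targets of the tumour suppressor p53, and their products restrain the cell cycle and promote apoptosis by repressing messages such as those of cyclin-dependent kinases and Bcl2. In mice miR-34b and miR-34c are known above all from testis and from ciliated epithelium, while miR-34a is made in most tissues. miR-210 is the miRNA most regularly induced by low oxygen, through HIF-1, and represses the iron-sulphur assembly factor Iscu and other mitochondrial proteins.

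The mature sequences show which members can share targets. They were taken from RefSeq (build GRCm38.p6) by miRNA name, where 5 of the 6 members matched. The member without a match was miR-34c-5p, so its sequence and seed are not printed, which does not mean that it lacks the family seed. They are printed with the seed (bases 2 to 8) in capitals. The first 4 share a single seed and can pair with the same site, CACUGCC. They are the matched 5p arms of the family and miR-449a-5p and miR-449c-5p of the related miR-449 cluster.
miR-34a-5p: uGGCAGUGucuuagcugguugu
miR-34b-5p: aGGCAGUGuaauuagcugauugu
miR-449a-5p: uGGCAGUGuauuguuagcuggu
miR-449c-5p: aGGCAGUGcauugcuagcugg
The 3p arms of miR-34b and miR-34c share another seed, whose matching site is UAGUGAU, while the 3p arm of miR-34a and miR-210-3p each have a seed of their own.
miR-34b-3p: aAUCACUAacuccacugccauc
miR-34c-3p: aAUCACUAaccacacagccagg
miR-34a-3p: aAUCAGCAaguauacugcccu
miR-210-3p: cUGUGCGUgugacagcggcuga
Counted from 1 at the 5′ end, miR-34b-3p and miR-34c-3p have the same base at 17 of 22 positions and differ by U11C, C12A, U16A, U21G and C22G. The sources used here do not say how the authors assigned reads that fit both.

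The hairpins lie at 3 loci, given here on GRCm38.p6 from RefSeq because the deposited table has no coordinates and the submitters' processing notes name mm9. Mir34a lies at chr4:150068454-150068555 on the plus strand and overlaps an exon of Gm37795, an unclassified transcript, in GENCODE M21. Mir34b (chr9:51103562-51103645) and Mir34c (chr9:51103034-51103110) lie on the minus strand, 451 bases apart, within an intron of the protein-coding gene Btg4 on the opposite strand. Mir210, at chr7:141221384-141221493 on the minus strand, overlaps no other annotated gene. The miR-34b hairpin is shown because its reads came almost wholly from its 3p arm. The capitals mark its 5p arm and then its 3p arm.
miR-34b hairpin: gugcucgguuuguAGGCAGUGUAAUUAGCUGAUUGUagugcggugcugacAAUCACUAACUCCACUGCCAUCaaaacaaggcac

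The 6 libraries held 9015669 to 9813063 miRNA reads. Levels are in RPM (reads for a miRNA per 1000000 reads of all miRNAs), so a single read was worth 0.102 to 0.111 RPM. RPM has no correction for length, but the matched mature forms of the members are 22 to 23 bases long. TGF-beta replicate 3 stood somewhat apart, correlating at 0.994 on average with its group (log values, across names), where the other libraries had 0.995 to 0.997. It was the lowest of the 6 libraries at 30.9% of 418 tested names, where the other libraries were lowest at 11.0% to 18.9%. As a check of the cell label, the 4 muscle miRNAs miR-206-3p, miR-1a-3p, miR-133a-3p and miR-133b-3p summed to 100931 to 102094 RPM in TGF-beta and 134112 to 153637 RPM in control libraries. Summed levels of the other marker lists lay within 0.863 to 25.02 RPM for blood, endothelium, liver, epithelium and ciliated epithelium. The retina and neuron list was the exception, where 6 of 7 names summed to 6368 to 8600 RPM in TGF-beta and 7637 to 8661 RPM in control libraries. Most of that sum came from miR-9-5p and the cluster of miR-183-5p and miR-182-5p. The name of that list absent from the deposited table was miR-124-3p. The labels' extraction text speaks of retinas, at odds with the C2C12 label.

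The 5p arm of miR-34c was by far the most abundant member. miR-34c-5p, a p53-induced repressor of cell cycle genes, stood at 3608, 3003 and 2710 RPM in the TGF-beta libraries, against 2534, 3264 and 2767 RPM in the control libraries. The highest value was that of TGF-beta replicate 1 and the lowest that of control replicate 1, and the groups overlapped. It ranked 36 among the 1065 names by its mean. Its log2 fold change was 0.12 (SE 0.13, limma with Benjamini-Hochberg over 418 names, adjusted p = 0.714). With all libraries in, the 95% interval ran from −0.15 to 0.39, or up to 1.31-fold higher. Without TGF-beta replicate 3 it ran from −0.06 to 0.48.

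The opposite arm of the same hairpin was far lower. miR-34c-3p had 32.9, 27.5 and 30.9 RPM in TGF-beta and 26.7, 37.9 and 35.2 RPM in control libraries. All 3 treated values lay inside the control range. Its log2 fold change was −0.11 (SE 0.16, limma adjusted p = 0.806).

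The miR-34b hairpin gave its reads mainly as the 3p arm. miR-34b-3p stood at 121.3, 119.6 and 103.8 RPM in TGF-beta and 109.6, 140.6 and 131.7 RPM in control libraries, with the lowest value in TGF-beta replicate 3 and groups that overlapped. Its log2 fold change was −0.14 (SE 0.15, limma adjusted p = 0.710). miR-34b-5p, which carries the family seed, had 1.93, 3.81 and 2.11 RPM in TGF-beta and 3.67, 2.80 and 3.63 RPM in control libraries. These are 18 to 36 reads a library, and TGF-beta replicate 2 was the highest of all 6. Counting alone gives a coefficient of variation of 20.3% in TGF-beta and 17.7% in control libraries at such depth, where 39.6% and 14.5% were measured. At −0.30 (SE 0.24, limma adjusted p = 0.624) its log2 fold change was the largest in size among the members, with the widest interval, from −0.80 to 0.19.

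**Figure D1:**
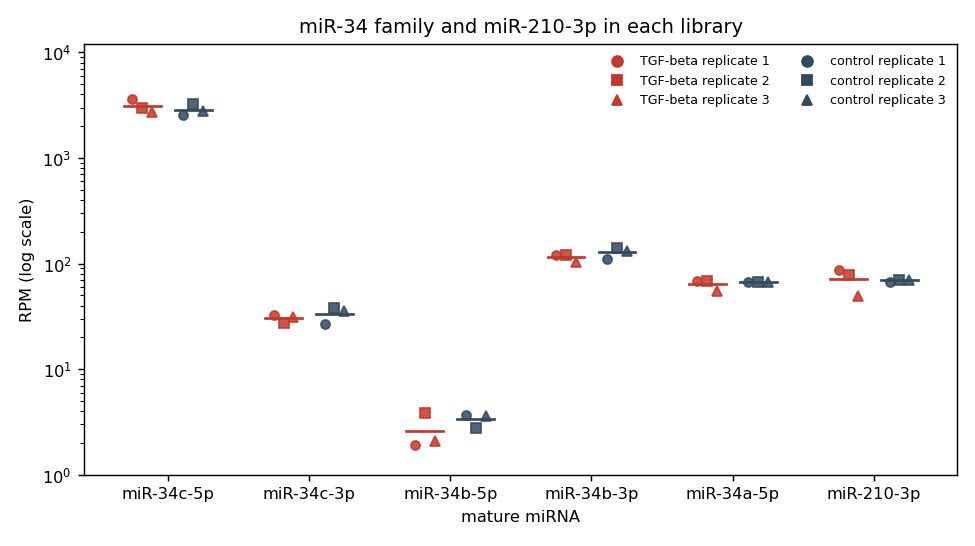
RPM (log scale) of the 6 miRNAs in each of 3 TGF-beta (red, left of each pair) and 3 control libraries (dark, right). Symbols mark the replicate and bars the group mean; miR-34c-5p lies between 2534 and 3608 RPM, all other members lie at or below 140.6 RPM, and the 2 groups overlap at every member.

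miR-34a-5p, the member made from its own gene and the best studied p53-induced miRNA, was even across the control libraries. It stood at 67.6, 69.0 and 55.3 RPM in TGF-beta and 66.3, 66.5 and 66.6 RPM in control libraries. TGF-beta replicate 3 was the lowest library and the other treated libraries lay just above all 3 controls. The control values varied by 0.183%, less than the 3.98% that counting of 617 to 651 reads gives, so this narrow spread is no measure of the precision. Its log2 fold change was −0.06 (SE 0.15, limma adjusted p = 0.883), with an interval from −0.37 to 0.25. The opposite arm, miR-34a-3p, had 2, 1 and 0 reads in TGF-beta and 1, 1 and 0 reads in control libraries, where a count of 0 allows up to 3 reads (0.306 to 0.333 RPM).

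miR-210-3p, the hypoxia-induced member, was spread widely among the treated libraries. It stood at 87.2, 78.5 and 49.1 RPM in TGF-beta and 66.95, 70.4 and 70.1 RPM in control libraries. TGF-beta replicates 1 and 2 lay above every control library and replicate 3 below every control library. The coefficient of variation was 27.8% in TGF-beta and 2.77% in control libraries, where counting alone gives 3.88% and 3.91%. The log2 fold change was 0.01 (SE 0.18, limma adjusted p = 0.999), with an interval from −0.37 to 0.39. Without TGF-beta replicate 3 it was 0.26 (SE 0.10, limma adjusted p = 0.154, unadjusted p = 0.0317), a value below the threshold only before adjustment. In that setting 8.91% of tested names were called, and 24.8% had an unadjusted p under 0.05. The opposite arm, miR-210-5p, stood at 3.87, 4.13 and 1.89 RPM in TGF-beta and 2.24, 3.45 and 4.05 RPM in control libraries, again lowest in TGF-beta replicate 3.

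Ordered by mean level, miR-34c-5p came first, then miR-34b-3p, miR-210-3p, miR-34a-5p, miR-34c-3p and miR-34b-5p. The ranges of miR-210-3p (49.1 to 87.2 RPM) and miR-34a-5p (55.3 to 69.0 RPM) overlapped, and these neighbours could not be set apart. All other neighbours had ranges over the 6 libraries that did not overlap.

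None of the 6 members passed the test, in a comparison where limma called 7.89% of the 418 tested names, 17 higher and 16 lower with TGF-beta. Without miR-21a-5p, which took up to 36.7% of reads in TGF-beta and 27.9% in control libraries, and with the rest rescaled, the calls were 22 higher and 6 lower. No member had an unadjusted p under 0.05, against 15.3% of all tested names, and no member was called by edgeR (6.94% of names) or DESeq2 (7.42%) on the recovered reads. Without TGF-beta replicate 3 none was called either, and the log2 fold change was 0.21 for miR-34c-5p, −0.13 for miR-34c-3p, −0.07 for miR-34b-3p, −0.21 for miR-34b-5p and 0.04 for miR-34a-5p. At none of the 6, with all libraries in, were the groups apart, which was so at 21.3% of tested names. The intervals leave room for change: with all libraries in and no rescaling, they run over the members from 0.575-fold (miR-34b-5p) to 1.31-fold (miR-34c-5p). In the authors' deposited table the unadjusted p-values of the members run from 0.312 for miR-34b-3p to 0.842 for miR-210-3p. A sum over cells cannot tell fewer cells making a miRNA from less of it per cell.

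**Figure D2:**
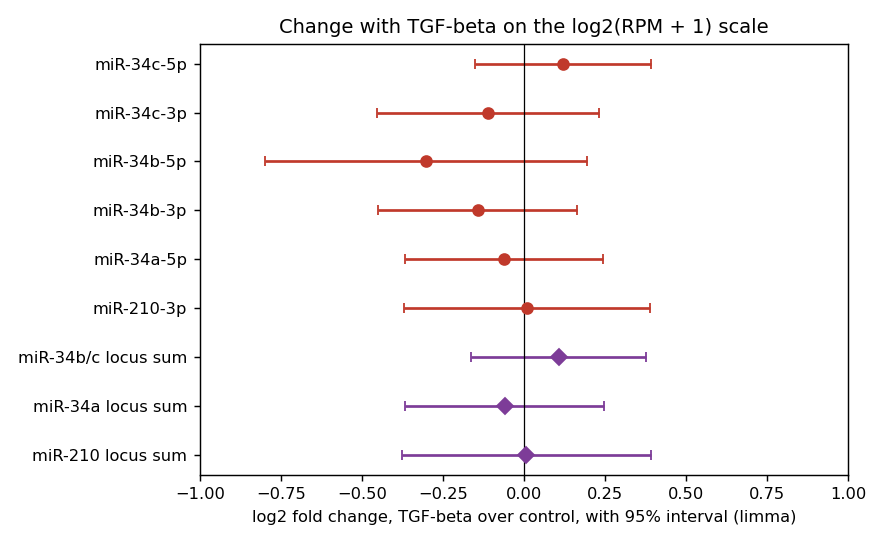
Log2 fold change of TGF-beta over control libraries on the log2(RPM + 1) scale, with 95% intervals from limma, for the 6 members (circles) and for the summed arms of each locus (diamonds). Every interval includes 0, and the widest is that of miR-34b-5p, from −0.80 to 0.19.

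Read by locus, almost all reads of the family came from the miR-34b/c locus. Its 4 arms summed to 3764, 3154 and 2847 RPM in TGF-beta and 2674, 3445 and 2938 RPM in control libraries. The groups overlapped, with the highest sum in TGF-beta replicate 1 and the lowest in control replicate 1. This was 98.1% ± 0.19 of all miR-34 reads in TGF-beta and 97.8% ± 0.27 in control libraries (SD, n = 3 each). The log2 fold change of the locus was 0.11 (SE 0.13, limma adjusted p = 0.763 over 414 rows, of which 7.97% were called), and the exact permutation test, two-sided, gave p = 0.6. The miR-34a locus averaged 64.1 ± 7.61 RPM in TGF-beta and 66.5 ± 0.101 RPM in control libraries (log2 fold change −0.06, SE 0.15, limma adjusted p = 0.882). The miR-210 locus averaged 74.9 ± 21.1 RPM in TGF-beta and 72.4 ± 2.78 RPM in control libraries (log2 fold change 0.01, SE 0.18, limma adjusted p = 0.999). Leaving out miR-21a-5p shifted the median of all names by 0.16 on the log2 scale, and the loci then stood at 0.28 (miR-34b/c), 0.11 (miR-34a) and 0.18 (miR-210), with none called. The whole family took 0.332% ± 0.047 of miRNA reads in TGF-beta and 0.309% ± 0.039 in control libraries.

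The balance between the p53-responsive loci was then compared. The miR-34b/c locus gave 55.5, 45.6 and 51.4 times the reads of the miR-34a locus in TGF-beta and 40.2, 51.7 and 44.1 times in control libraries. The groups overlapped through control replicate 2. The log2 ratio of miR-34a to miR-34b/c was −5.64 ± 0.14 in TGF-beta and −5.47 ± 0.18 in control libraries (SD, n = 3 each), a difference of −0.17 with a two-sided exact permutation p of 0.3, where the smallest possible p is 0.1. The size of the difference turned on single libraries: it was −0.10 when TGF-beta replicate 1 was left out, −0.085 when control replicate 1 was, and −0.27 when control replicate 2 was.

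The hairpins of this single locus differed in which arm they gave. The 5p arm took 99.0% ± 0.13 of miR-34c reads in TGF-beta and 98.9% ± 0.11 in control libraries, but 2.22% ± 0.78 of miR-34b reads in TGF-beta and 2.62% ± 0.64 in control libraries (SD, n = 3 each). The arm of miR-34b printed second in its hairpin was thus the main one in each library, at 29.9 to 62.8 times the 5p arm. In the miR-34c hairpin the 5p arm had 78.6 to 109.8 times the reads of the 3p arm. miR-34a resembled miR-34c, with a 5p share of 99.7% or more in each library, and miR-210 resembled miR-34b, with a 5p share of 3.24% to 5.47%.

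These preferences were strong but not singular in the libraries. Among 109 hairpins with both arms measured, 50 had more 3p than 5p reads. miR-34b ranked 16 from the 3p-sided end, miR-210 ranked 21 from that end and miR-34c ranked 18 from the 5p-sided end. Of the reads of the 3 family 5p arms, miR-34c-5p, whose sequence was not matched here, held 97.9% ± 0.24 in TGF-beta and 97.6% ± 0.31 in control libraries. miR-34b-3p held 79.01% ± 2.15 of the paired 3p arms that share a seed in TGF-beta and 79.4% ± 0.91 in control libraries.

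**Figure D3:**
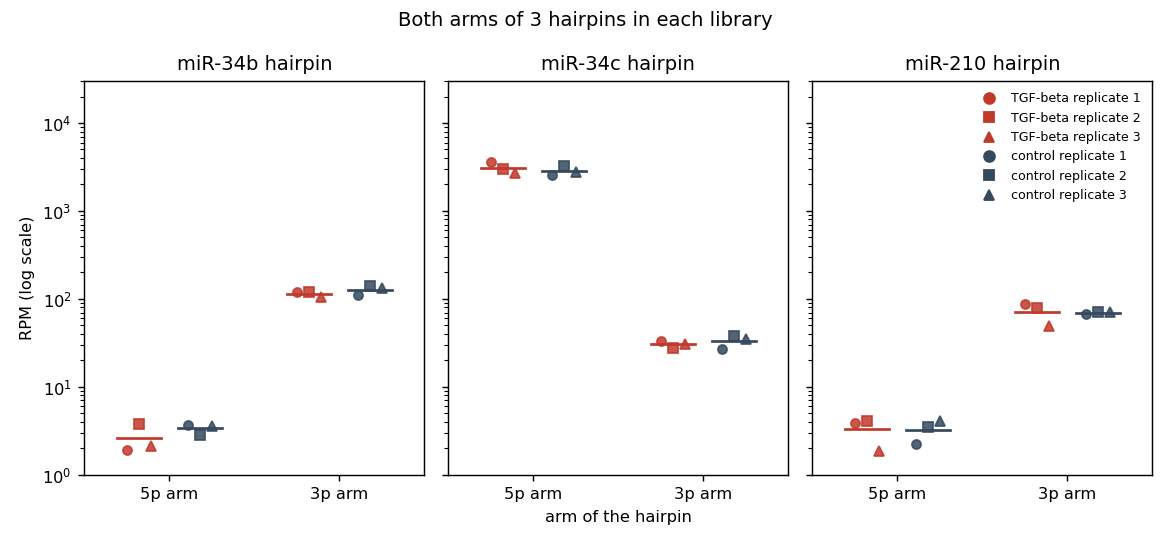
RPM (log scale) of the 5p and 3p arm of the miR-34b, miR-34c and miR-210 hairpins in each TGF-beta (red, left) and control library (dark, right), with bars at the group means. The 3p arm is higher for miR-34b and miR-210 and the 5p arm for miR-34c, in all 6 libraries.

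Arm preference was not called as different between the groups at any hairpin. For miR-34c, log2 of 5p over 3p was 6.62 ± 0.19 in TGF-beta and 6.39 ± 0.13 in control libraries (SD, n = 3 each), a difference of 0.23 (SE 0.16, limma adjusted p = 0.602). That of miR-34b was −5.04 ± 0.37 in TGF-beta and −4.88 ± 0.33 in control libraries, a difference of −0.16 (SE 0.25, limma adjusted p = 0.864). That of miR-210 differed by −0.02 (SE 0.19, limma adjusted p = 0.992). Of all 109 hairpins limma called 0%, and 10 (9.17%) had an unadjusted p under 0.05.

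Ratios between the members do not change when a whole library is scaled by a single factor, though quantile normalization can change them. The 15 pairs were compared after the values had been seen. In 1 pair the groups did not overlap. miR-34c-5p had 29.7, 25.1 and 26.1 times the RPM of miR-34b-3p in TGF-beta and 23.1, 23.2 and 21.01 times in control libraries. These are the main arms of neighbouring hairpins, and the ratio was higher in all 3 treated libraries, by 0.26 on the log2 scale (exact permutation p = 0.1, two-sided, the smallest that 3 against 3 libraries allow, and not adjusted for the 15 pairs). Over all pairs of tested names 20.9% had ratios that did not overlap, so 1 of 15 is below that background. For miR-34c-5p over miR-34a-5p the ratios were 53.3, 43.5 and 48.97 in TGF-beta and 38.2, 49.1 and 41.6 in control libraries, and overlapped.

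**Figure D4:**
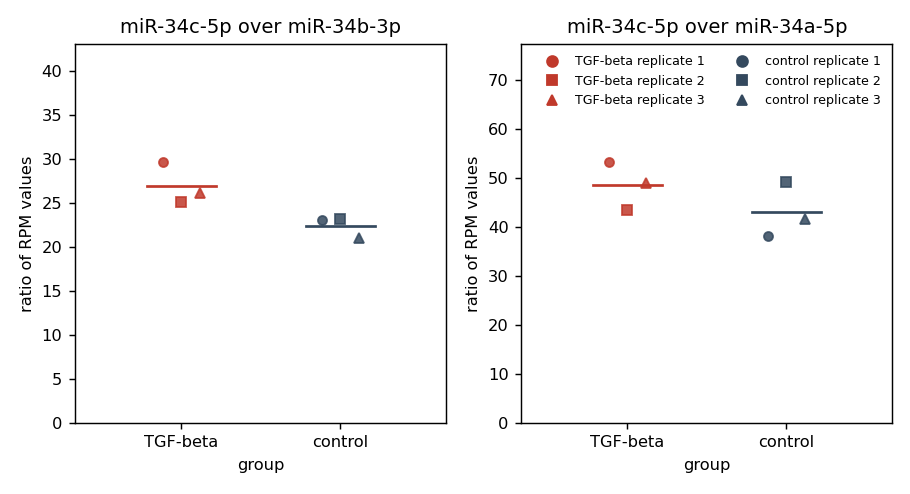
Ratio of RPM values of miR-34c-5p over miR-34b-3p (left panel) and over miR-34a-5p (right panel), by library, with bars at the group means. Over miR-34b-3p the 3 TGF-beta libraries (25.1 to 29.7) lie above the 3 control libraries (21.01 to 23.2), and over miR-34a-5p the groups overlap.

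The miR-449 miRNAs, of which miR-449a-5p and miR-449c-5p are printed above with the family seed, were few. miR-449a-5p, an miRNA of ciliated epithelium, had 2.90, 2.01 and 1.22 RPM in TGF-beta and 2.85, 2.48 and 3.84 RPM in control libraries. TGF-beta replicate 1 lay inside the control range, and the log2 fold change was −0.44 (SE 0.25, limma adjusted p = 0.411). miR-449c-5p had 4, 0 and 0 reads in TGF-beta and 2, 2 and 1 reads in control libraries, and miR-449b had 1 read in a single TGF-beta library. Among names with a matched sequence, miR-449a-5p and miR-449c-5p were the sole carriers of the seed outside the miR-34 family.

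The miRNAs whose levels ran most like those of the members were found by the root mean square difference of log2(RPM + 1) over the 6 libraries, each name centred on its own mean. For miR-210-3p these were miR-106b-5p (0.044), miR-107-3p (0.047) and miR-30b-5p (0.065), against a median of 0.315 over 417 names. For miR-34a-5p they were miR-185-5p (0.028), let-7g-5p (0.045) and miR-103-3p (0.051), against a median of 0.220. For miR-34c-5p they were miR-101b-3p (0.071), miR-3068-5p (0.076) and miR-744-5p (0.082), against a median of 0.266. The other members were not the closest. Among 417 names miR-34b-3p ranked 40 and miR-34a-5p ranked 43 in likeness to miR-34c-5p, and miR-34c-3p, the other arm of the same hairpin, ranked 65. This is a description of 6 libraries that share their scaling. miR-210-3p and miR-107-3p were both lowest in TGF-beta replicate 3, at 49.1 and 69.8 RPM. How far that library sets these likenesses was not tested.

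Other miRNAs linked to p53 were compared with the family. Of 12 names on this list 11 were tested, and 1 rose and none fell, against 4.07% of all tested names that rose and 3.83% that fell. The list was drawn up with earlier results of these data known, so these shares describe it and do not test it. The riser was miR-16-1-3p, from a hairpin whose main product, miR-16-5p, restrains cyclins. That main product is on the list too and was not called (log2 fold change −0.0087, SE 0.14, limma adjusted p = 0.999), and its groups overlapped. miR-16-1-3p stood at 74.3, 68.1 and 78.9 RPM in TGF-beta and 45.96, 55.9 and 43.1 RPM in control libraries. Every treated value lay above every control value (limma log2 fold change 0.61, SE 0.15, adjusted p = 0.0160). This call was lost without TGF-beta replicate 2, control replicate 1 or control replicate 3 (limma adjusted p = 0.0505, 0.0734 and 0.110), and also after quantile normalization (limma adjusted p = 0.0969) and without the intensity trend (limma adjusted p = 0.0611). The most abundant names that did not pass were miR-143-3p, a smooth muscle miRNA, at 22301 ± 1398 RPM in TGF-beta and 22619 ± 3172 RPM in control libraries, and miR-22-3p at 890 ± 94.6 RPM in TGF-beta and 868 ± 69.9 RPM in control libraries (log2 fold changes −0.01 and 0.03). The median log2 fold change of the list was −0.01, beside −0.05 over all tested names. Without TGF-beta replicate 3 the list's median was 0.12, beside −0.03 over all names. In that setting 2 of its names were called, where 8.91% of all names were, the second being miR-145a-5p at a log2 fold change of 0.44 (limma adjusted p = 0.0165).

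Of the 13 hypoxia-linked names all were tested, and 2 rose and none fell, against 4.07% of all tested names that rose and 3.83% that fell. Earlier results of these data were known when this list too was drawn up, so the comparison is a description and no test. miR-155-5p, an inflammation-linked miRNA, stood at 393, 418 and 350 RPM in TGF-beta and 208, 219 and 217 RPM in control libraries. Its groups were far apart (limma log2 fold change 0.84, SE 0.13, adjusted p = 0.000479). miR-199a-5p, which in heart muscle cells represses HIF-1 alpha and is lowered by low oxygen, stood at 5075, 5002 and 4775 RPM in TGF-beta and 3069, 3108 and 3142 RPM in control libraries. Its groups too were apart (limma log2 fold change 0.67, SE 0.10, adjusted p = 0.000479). The most abundant names that did not pass, miR-26a-5p and miR-24-3p, had log2 fold changes of −0.18 (SE 0.10) and −0.21 (SE 0.10). At both, every treated value lay below every control value, so that the groups were apart at 4 of the 13 names, against 21.3% of all tested names. Without miR-21a-5p these log2 fold changes were −0.0099 for miR-26a-5p and −0.041 for miR-24-3p. The median of the list was −0.08, beside −0.05 over all tested names. Without miR-21a-5p the median was 0.09, beside 0.11 over all names.

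**Figure D5:**
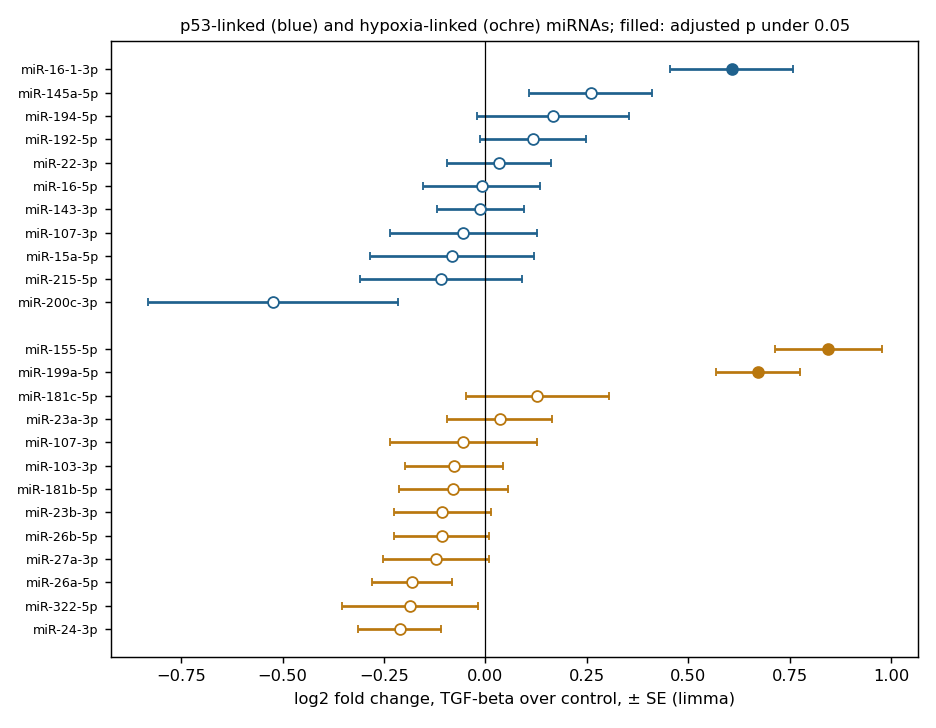
Log2 fold change of TGF-beta over control libraries (± SE, limma) for the tested p53-linked (blue) and hypoxia-linked (ochre) miRNAs; filled circles passed an adjusted p of 0.05. Filled circles are miR-16-1-3p at 0.61, miR-155-5p at 0.84 and miR-199a-5p at 0.67, and miR-107-3p stands on both lists.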

How the data were processed

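Small RNA of 6 libraries of C2C12 cells (3 TGF-beta, 3 control) had been counted per miRNA name by the authors. Their values are headed TPM, but per the file headers and values they are RPM: each library sums to 1000000. The submitters' processing notes name the build mm9, and the sources used here give no aligner, counter or miRNA annotation. Beside these, the authors deposited a mean RPM per group and 1 unadjusted p-value for each name. Dividing by the worth of a read gave whole reads for 100% of values (tolerance 0.02 read), used in the count tests. Replicate pairs differed by 75.1 to 324 in chi-square per degree of freedom, so no library was a copy.

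The 418 names that reached 1 RPM in 3 or more libraries, all 6 members among them, were tested with limma 3.58.1 in R 4.3.3 on log2(RPM + 1), with an intensity trend, two-sided, and with Benjamini-Hochberg adjustment over all of them at 0.05. This scale understates the change of low names. Arms of a locus were summed and refitted with the whole table, and arm ratios were fitted over 109 hairpins with both arms past that minimum. Single ratios were compared by exact permutation. edgeR 4.0.16 and DESeq2 1.42.0 were run on the reads as alternatives, beside other pseudocounts, minimums and scalings, a replicate block and each library left out. The limma steps were also run on simulated data. There the spread was set alike for all names and libraries, so that run does not cover a library that stands apart, as TGF-beta replicate 3 did.

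All 6 members, names with a member's seed, the called and the 2 most abundant uncalled names of each list, and the 3 names most like miR-34c-5p, miR-34a-5p and miR-210-3p are named. miR-145a-5p and the pair ratios were chosen after their values were seen. The members and lists were chosen with earlier results of these data known. The 95% intervals come from limma and rest on the spread among libraries. Floors and counting coefficients of variation cover counting error only, since molecular identifiers are not mentioned.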

Additional observations from a re-analysis of the deposited data

How the results depend on the processing

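No member was called under any of the 18 alternatives, though miR-34b-5p was not tested at a minimum of 10 RPM. An unadjusted p under 0.05 arose for miR-34c-5p without miR-21a-5p (log2 fold change 0.29, limma adjusted p = 0.226), for miR-34b-5p without TGF-beta replicate 2 (limma adjusted p = 0.318) and for miR-210-3p without TGF-beta replicate 3 (limma adjusted p = 0.154). Names called numbered 19 with no minimum (9 higher, 10 lower), 20 at a minimum of 10 RPM (11 higher, 9 lower), 10 after quantile normalization (6 higher, 4 lower) and 16 without the intensity trend (10 higher, 6 lower). Lower calls numbered 10 with TMM scaling, 9 with median scaling, 6 without miR-21a-5p and 10 with edgeR. Leaving out a library gave 17 to 36 calls, 9 to 21 higher and 8 to 17 lower. The log2 fold change of miR-34a-5p changed sign with TMM scaling (0.0068), median scaling (0.0081), edgeR (0.011) and without miR-21a-5p (0.11), as did its locus with median scaling (0.0088) and without miR-21a-5p (0.11). Without miR-21a-5p miR-34b-3p stood at 0.026 and miR-34c-3p at 0.053. With each library left out, miR-34a-5p ran from −0.12 to 0.039, miR-210-3p from −0.15 to 0.26, miR-34b-5p from −0.53 to −0.17, miR-34b-3p from −0.25 to −0.068, miR-34c-5p from 0.0070 to 0.22 and miR-34c-3p from −0.26 to −0.014. With a pseudocount of 5 miR-34b-5p stood at −0.14. Over the same omissions the loci ran from −0.12 to 0.041 (miR-34a), −0.0028 to 0.21 (miR-34b/c) and −0.15 to 0.26 (miR-210), and the arm ratios from −0.35 to 0.014 (miR-34b) and −0.18 to 0.11 (miR-210). For the p53-linked list, 0 names were called after quantile normalization and without the trend, and 0 to 2 with a library left out. Its median was 0.076 at a minimum of 10 RPM, 0.060 with TMM scaling, 0.061 with median scaling, 0.16 without miR-21a-5p, 0.070 with edgeR, 0.055 with DESeq2, and −0.017 to 0.12 with a library left out. The hypoxia-linked median was 0.090 without miR-21a-5p and −0.13 to 0.027 with a library left out. miR-143-3p changed sign with TMM (0.056), median (0.058) and quantile scaling (0.14), without miR-21a-5p (0.16), with edgeR (0.050) and with DESeq2 (0.035), and ran from −0.13 to 0.071 with a library left out. After quantile normalization miR-22-3p stood at −0.087 and miR-26a-5p at 0.039, and miR-22-3p ran from −0.045 to 0.11 with a library left out. Same-numbered libraries deviated from their group means with r of −0.08, −0.07 and −0.08. With 3 libraries a group, this cannot tell whether equal numbers mark a shared batch. With a replicate block 0 members and 32 names were called. For the ratio of miR-34c-5p to miR-34b-3p the alternatives were chosen after seeing the data. With the block its exact permutation p was 0.25, two-sided, the smallest that 3 pairs of libraries allow. For that ratio the difference stayed between 0.19 and 0.31 with a library left out. The causes of these shifts were not tested. Depth limits the low names, with miR-34a-3p at 0 to 2 reads and miR-34b-5p at 18 to 36 reads a library.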

Other observations

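miR-449a-3p, the opposite arm of the miRNA that shares the miR-34 seed, was below the tested level and is given here because its values were seen. It had 10, 5 and 3 reads in TGF-beta and 1, 3 and 2 reads in control libraries (1.07, 0.529 and 0.333 RPM in TGF-beta, 0.102, 0.324 and 0.213 RPM in control libraries). The other arm, miR-449a-5p, had 27, 19 and 11 reads in TGF-beta and 28, 23 and 36 reads in control libraries. At these counts no difference between the arms was tested.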
